A study of Arabidopsis thaliana with 6 samples.

Results

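Carbon starvation and senescence genes are described here in gbpl3 and Col-0 seedlings of Arabidopsis thaliana. The 10 genes, of 32833 in the count table, were chosen by name as known markers and regulators of dark, low-sugar or ageing tissue. They are SEN1, ASN1, DIN2, DIN10, DIN11, SAG13, NAC6 (also called ORE1), BCAT2, bZIP1 and bZIP11. The gbpl3 group is a mutant of GBPL3, which belongs to the guanylate-binding-like proteins and, by the series' title, to the nuclear pore basket; the labels give no allele, and the number they add to the mutant's name was read as a replicate number. The Col-0 group is the wild type. Both groups were whole seedlings, 7 days old, untreated, grown on MS-based medium with 1% sucrose. Each genotype had 3 libraries of strand-specific messenger RNA. Whether replicates are separate cultures is not in the labels; the p-values here therefore reflect only how far these samples spread, and that spread may be technical.

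When a plant runs short of sugar, in prolonged darkness for example, the SnRK1 kinase shifts metabolism towards the breakdown of reserves, and transcription factors of the bZIP family, bZIP1 among them, carry part of that signal to genes such as ASN1. Many genes found by their rise in darkness were named DIN, for dark inducible, and several of them, with SEN1, are repressed by sugar. Leaf senescence uses a partly shared set of genes, with NAC transcription factors such as NAC6 among its promoters and SAG genes among its markers.

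Of the 10 genes, 5 were higher in gbpl3 at an adjusted p under 0.05. These were ASN1, DIN2, SEN1, NAC6 and DIN10, with estimated changes of 3.51-fold, 3.54-fold, 2.94-fold, 2.48-fold and 1.27-fold. The other 4 tested genes, bZIP1, bZIP11, BCAT2 and DIN11, were not called, and SAG13 had too few counts for the test. DIN10, the most abundant of the 10, had the smallest change of those called. Among all 20677 genes tested with edgeR's quasi-likelihood test and Benjamini-Hochberg adjustment, 6.06% were called higher and 4.69% lower in gbpl3. None of the 9 tested members was called lower with edgeR, and DESeq2 also called 0 lower; at an unadjusted p under 0.05 there was 1, bZIP11. DESeq2 called 4 higher. With 1 library left out, 3 genes were called higher without any 1 of the gbpl3 libraries, 4 without Col-0 replicate 1 or 3, and 6 without Col-0 replicate 2. The 4 without Col-0 replicate 1 include SAG13 (adjusted p = 0.0378 with edgeR), untested with all 6 libraries and kept there by its gbpl3 counts. In that fit DIN2 and DIN10 lost their calls (adjusted p = 0.0582 and 0.0807). The median log2 fold change of the 9 genes was 0.40, against -0.0034 over all tested genes. Every gbpl3 library lay above every Col-0 library for 5 of the 9 genes and below for 1, where all tested genes gave 14.5% above and 13.6% below. Because the genes were chosen with earlier results of these data known, no test was made of the group as such.

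GBPL3 (AT5G46070) itself had 156, 243 and 168 counts in the gbpl3 libraries, against 790, 827 and 646 in the Col-0 libraries, a log2 fold change of -2.04 ± 0.12 (SE, adjusted p = 5.11e-09). Total counts per library were 10836165 to 12911891 in gbpl3 and 9530643 to 12104120 in Col-0, and 3 counts correspond to 0.232 to 0.284 CPM (counts scaled to the normalised library size) in gbpl3 and 0.246 to 0.307 CPM in Col-0. In a principal component analysis, the Col-0 libraries were spread along the second component (18% of the variance). Col-0 replicates 2 and 1 lay at its opposite ends, at 42.6 and -28.4, and Col-0 replicate 3 at -10.1. Shoot markers were the most abundant of the cell type lists, with a summed level of 22717 to 26359 CPM in gbpl3 and 21744 to 23111 CPM in Col-0. Root markers summed to 3438 to 3638 CPM in gbpl3 and 4236 to 4413 CPM in Col-0, so both organs were present, as the label whole seedling says. Almost all of that root sum was 1 gene, PYK10, at a mean of 3463 CPM in gbpl3 and 4207 CPM in Col-0 (log2 fold change -0.28, adjusted p = 0.0696 with edgeR). None of the 7 root markers was called with edgeR (1 higher and 2 lower at an unadjusted p under 0.05; DESeq2 called 1 lower), and 3 of the 7 estimates were positive. Seed storage markers summed to 24.2, 101 and 242 CPM in gbpl3 replicates 1 to 3, against 0.262, 2.71 and 2.66 CPM in Col-0 replicates 1 to 3. CRU2, CRU3, SESA1, SESA3 and SESA4, 5 of the 10 seed markers, were at 0 in every Col-0 library. The other 5 passed the filter on low counts through their gbpl3 libraries, which fixed their direction, so no count of calls is given for them. The part of this seed RNA in the results that follow was not tested. In whole seedlings, fewer cells of a type and less RNA per cell cannot be told apart.

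The stretches just before the annotated start of 4 of the genes are given to show the letters that bZIP factors are known to prefer, ACGT and its longer form CACGTG, in capitals. SEN1 and ASN1 stand for the genes with clear changes, DIN10 for a small one and DIN11 for none. Sequence is from RefSeq, build TAIR10.1, read 5′ to 3′ on the gene's strand, limited to parts of the 250 bases before the start that lie outside other annotated genes.
SEN1, chr4:16944678-16944877, plus strand: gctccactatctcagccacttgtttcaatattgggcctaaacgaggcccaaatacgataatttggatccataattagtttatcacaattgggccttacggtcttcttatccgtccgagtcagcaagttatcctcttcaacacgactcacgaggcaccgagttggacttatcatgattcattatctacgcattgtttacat
ASN1, chr3:17441568-17441681, minus strand: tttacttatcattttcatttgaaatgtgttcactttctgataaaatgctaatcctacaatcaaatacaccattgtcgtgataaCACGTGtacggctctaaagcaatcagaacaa
DIN10, chr5:6833314-6833563, plus strand: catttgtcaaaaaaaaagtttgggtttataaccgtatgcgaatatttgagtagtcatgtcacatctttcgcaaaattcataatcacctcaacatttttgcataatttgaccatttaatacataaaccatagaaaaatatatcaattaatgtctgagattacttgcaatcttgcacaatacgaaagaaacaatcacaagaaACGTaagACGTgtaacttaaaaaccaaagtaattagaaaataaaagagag
DIN11, chr3:18393497-18393746, plus strand: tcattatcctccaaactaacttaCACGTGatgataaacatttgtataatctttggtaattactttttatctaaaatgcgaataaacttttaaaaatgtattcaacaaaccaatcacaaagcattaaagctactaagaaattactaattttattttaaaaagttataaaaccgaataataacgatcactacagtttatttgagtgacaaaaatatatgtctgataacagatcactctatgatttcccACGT
In the full 250 bases before the start, searched on both strands, CACGTG was present in ASN1 and DIN11, 2 of 10 genes, and in 6.49% of 27443 promoters of that length. ACGT, which lies within CACGTG, was present in ASN1, DIN10, DIN11, SAG13 and BCAT2, 5 of 10 genes, and in 44.1% of all promoters. TATCCA was present in ASN1 and bZIP1 and in 13.6% of all promoters, while ACTCAT, in 12.3% of all, was in none of the 10. The genes with CACGTG thus include ASN1, which was called, and DIN11, which was not, and SEN1 had no match to any of the 4 motifs. A match is a description of the letters only.

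Among the regulators, NAC6 (AT5G39610, chr5:15858398-15859911, minus strand), a NAC transcription factor that promotes leaf senescence and age-dependent cell death, had 8.71, 12.9 and 9.67 CPM in gbpl3 replicates 1 to 3, against 4.54, 3.45 and 4.70 CPM in Col-0 replicates 1 to 3. The lowest gbpl3 library was well above the highest Col-0 library, and gbpl3 replicate 2 was the highest of all. Means were 10.4 ± 2.20 CPM in gbpl3 and 4.23 ± 0.680 CPM in Col-0 (SD, n = 3 each). This gave a log2 fold change of 1.31 ± 0.24 (SE, adjusted p = 0.0015). It ran from 1.12 to 1.42 with each library left out in turn, and all 6 of these fits called the gene.

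bZIP1 (AT5G49450, chr5:20051829-20052735, plus strand), a group S1 bZIP factor known as a regulator of genes for amino acid breakdown under low energy, had 23.2, 21.4 and 26.8 CPM in gbpl3 replicates 1 to 3, against 13.3, 22.3 and 18.2 CPM in Col-0 replicates 1 to 3. The groups overlapped, because Col-0 replicate 2 exceeded gbpl3 replicate 2. The log2 fold change of 0.40 ± 0.17 (SE) was not called (adjusted p = 0.145). Without Col-0 replicate 2 the estimate was 0.59 and the gene was called (adjusted p = 0.0232), the only 1 of the 6 fits with a library left out to do so. Without Col-0 replicate 1 the estimate fell to 0.23 (adjusted p = 0.47).

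bZIP11 (AT4G34590, chr4:16521861-16523230, plus strand), a close relative of bZIP1 whose translation is repressed by sucrose through a small upstream reading frame, had 17.1, 15.8 and 15.6 CPM in gbpl3 replicates 1 to 3, against 25.5, 17.8 and 18.8 CPM in Col-0 replicates 1 to 3. Every gbpl3 library was below every Col-0 library, by a small margin except for Col-0 replicate 1. The log2 fold change of -0.36 ± 0.16 (SE) was not called (adjusted p = 0.169), and none of the 6 fits with a library left out called it. Messenger RNA levels do not report the translation step at which this gene is known to be controlled. The ratio of bZIP1 to bZIP11 counts was 1.35, 1.35 and 1.71 in gbpl3 replicates 1 to 3, against 0.524, 1.25 and 0.967 in Col-0 replicates 1 to 3. Each gbpl3 library lay above each Col-0 library, but only narrowly above Col-0 replicate 2. Neither gene was called, and ratios of other gene pairs were not examined for comparison.

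ASN1 (AT3G47340, chr3:17437840-17441431, minus strand) encodes an asparagine synthetase, known for its induction in darkness, which stores nitrogen as asparagine when carbon is short. It had 44.6, 37.4 and 71.7 CPM in gbpl3 replicates 1 to 3, against 6.54, 24.5 and 12.4 CPM in Col-0 replicates 1 to 3. The groups did not overlap, yet libraries of a genotype differed widely, with a coefficient of variation of 35.3% in gbpl3 and 63.3% in Col-0. An estimated log2 fold change of 1.81 ± 0.30 (SE, adjusted p = 0.000828) resulted, and it was called in all 6 fits with a library left out. The estimate ran from 1.45 without Col-0 replicate 1 to 2.45 without Col-0 replicate 2. Adjusted p over these 6 fits ran from 2.17e-06 to 0.0134 with edgeR. The other asparagine synthetase genes were not called: ASN2 averaged 267 ± 20.9 CPM in gbpl3 and 300 ± 43.8 CPM in Col-0 (SD, n = 3 each), and ASN3 averaged 25.4 ± 1.51 CPM in gbpl3 and 33.3 ± 5.13 CPM in Col-0. ASN1 took 13.6%, 10.6% and 20.7% of the counts of the 3 genes in gbpl3 replicates 1 to 3, against 1.73%, 7.96% and 3.48% in Col-0 replicates 1 to 3. Each gbpl3 share was above each Col-0 share.

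BCAT2 (AT1G10070, chr1:3288087-3290471, plus strand) encodes a branched-chain aminotransferase, an enzyme class that acts at the start of leucine, isoleucine and valine breakdown and at the end of their synthesis. It had 3.50, 5.65 and 7.25 CPM in gbpl3 replicates 1 to 3, against 5.15, 4.85 and 6.44 CPM in Col-0 replicates 1 to 3. The groups overlapped fully, and the log2 fold change was 0.00 ± 0.28 (SE, adjusted p = 0.996), with a 95% interval from -0.54 to 0.55. It shares 161 exon bases with AT1G10090 on the opposite strand, which had 2987 counts over the 6 libraries to 369 for BCAT2. Whether the counting used the strand is not given in the sources used here, so counts of such pairs may be mixed.

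DIN10 (AT5G20250, chr5:6833564-6836862, plus strand), of the raffinose synthase family and repressed by sugar, was by far the most abundant of the 10 genes. It had 654, 693 and 775 CPM in gbpl3 replicates 1 to 3, against 516, 579 and 576 CPM in Col-0 replicates 1 to 3. All gbpl3 libraries were higher, by a margin that was small relative to the level. On the log2 scale the difference was 0.34 ± 0.10 (SE, adjusted p = 0.0357). The call held in 1 of the 6 fits with a library left out, the one without Col-0 replicate 2 (adjusted p = 0.0337), and ended without gbpl3 replicate 1, 2 or 3 (adjusted p = 0.0687, 0.0603 and 0.174) or without Col-0 replicate 1 or 3 (adjusted p = 0.0807 and 0.105). It also ended with limma on log2(FPKM + 1) (adjusted p = 0.12), and held with DESeq2.

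DIN2 (AT3G60140, chr3:22216540-22220824, plus strand) encodes a β-glucosidase, BGLU30, of a family that splits sugars from glycosides. It had few reads, 44, 63 and 46 counts in gbpl3 replicates 1 to 3, against 0, 18 and 23 counts in Col-0 replicates 1 to 3. The gbpl3 libraries were close to each other at 4.17, 4.87 and 4.28 CPM and all above Col-0, whose levels were 0, 1.48 and 2.35 CPM. The count of 0 in Col-0 replicate 1 allows a level of up to 0.262 CPM, for counting error only. The log2 fold change of 1.82 ± 0.57 (SE) passed the threshold narrowly (adjusted p = 0.0496). The call ended with DESeq2 (adjusted p = 0.487), without gbpl3 replicate 1, 2 or 3 (adjusted p = 0.109, 0.136 and 0.14) and without Col-0 replicate 1, where the estimate was 1.23 (adjusted p = 0.0582). Without Col-0 replicate 3 the estimate was 2.54 (adjusted p = 0.0343).

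DIN11 (AT3G49620, chr3:18393747-18397050, plus strand) encodes an oxygenase of the class that uses oxoglutarate and iron. It had 23, 11 and 18 counts in gbpl3 replicates 1 to 3, against 20, 14 and 17 counts in Col-0 replicates 1 to 3, which overlap. No change was called, at a log2 fold change of 0.01 ± 0.48 (SE, adjusted p = 0.993). Its 95% interval, from -0.93 to 0.95, is wide at this depth, so changes within those bounds remain compatible with the counts. The bounds are not a limit of detection.

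SEN1 (AT4G35770, chr4:16944878-16946266, plus strand), a rhodanese-family protein long used as a marker of darkness and senescence, had 50.8, 46.4 and 69.8 CPM in gbpl3 replicates 1 to 3, against 10.9, 25.9 and 19.8 CPM in Col-0 replicates 1 to 3. The groups were well apart, with gbpl3 replicate 3 and Col-0 replicate 2 the highest of their genotypes, as for ASN1. Means were 55.6 ± 12.4 CPM in gbpl3 and 18.9 ± 7.53 CPM in Col-0 (SD, n = 3 each). The log2 fold change was 1.56 ± 0.21 (SE, adjusted p = 0.000126), the smallest adjusted p of the 9 tested, and it ran from 1.27 to 1.87 with each library left out, with 6 calls in 6 fits.

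SAG13 (AT2G29350, chr2:12600914-12602556, plus strand), a short-chain dehydrogenase used as an early marker of senescence and cell death, had 11, 6 and 19 counts in gbpl3 replicates 1 to 3, against 8, 0 and 1 counts in Col-0 replicates 1 to 3. The groups overlapped, since Col-0 replicate 1 exceeded gbpl3 replicate 2. It did not pass the filter on low counts. With no filter the log2 fold change was 1.96 and was not called (adjusted p = 0.198), and without Col-0 replicate 1 it was 4.25 (adjusted p = 0.0378). In the latter fit SAG13 passed the filter through its gbpl3 libraries, which fixed its direction. The senescence marker SAG12, which is known to appear late in ageing leaves, had 0 counts in all 6 libraries, which allows a level of up to 0.307 CPM in the shallowest of them.

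**Figure D1:**
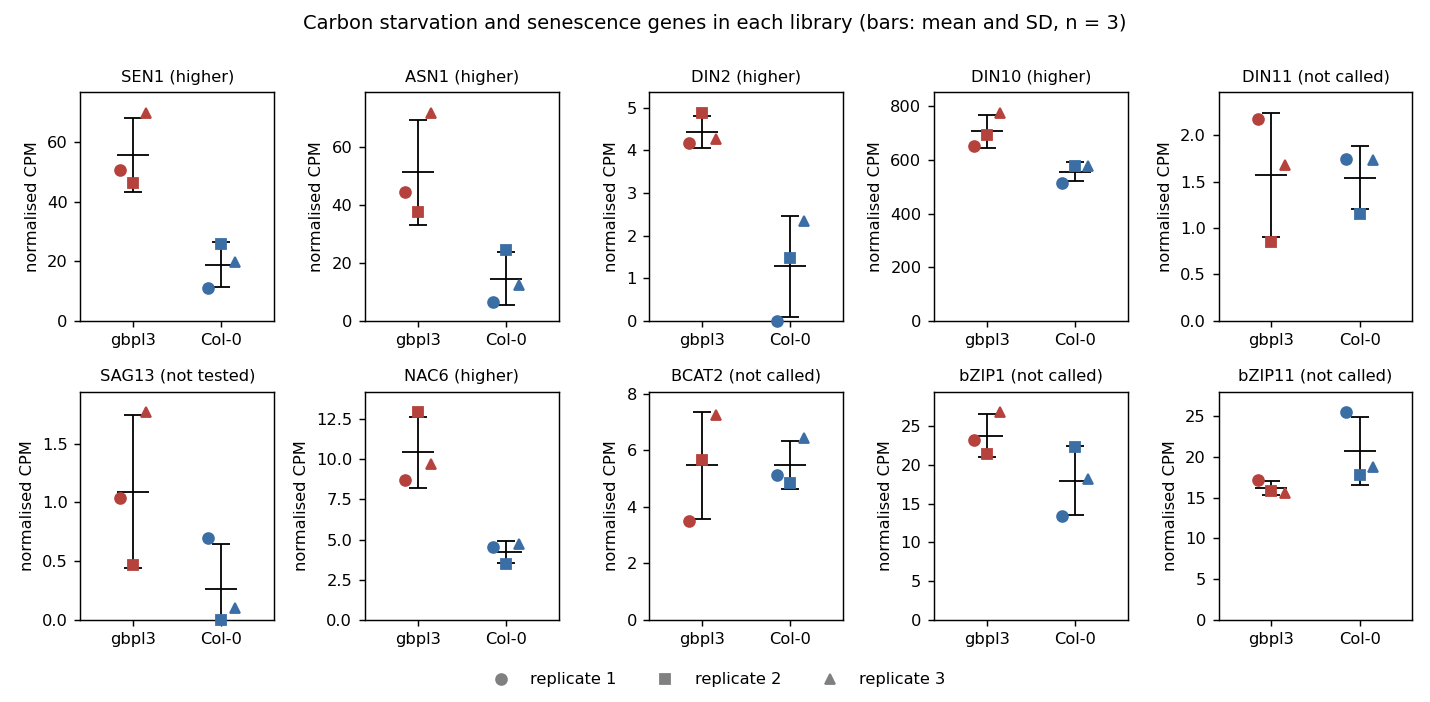
Normalised CPM of each of the 10 genes in the 3 gbpl3 libraries (red, left) and the 3 Col-0 libraries (blue, right), with a scale of its own for each gene and bars for the mean and SD, cut at 0. The gbpl3 points lie above all Col-0 points for SEN1, ASN1, DIN2, DIN10 and NAC6, and below them for bZIP11.

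The differences between libraries of a genotype had a common order in several of the genes. In Col-0, replicate 2 was the highest and replicate 1 the lowest for SEN1, ASN1, DIN10 and bZIP1, while for bZIP11 replicate 1 was the highest and replicate 2 the lowest. In gbpl3, replicate 3 was the highest for SEN1, ASN1, DIN10, bZIP1, SAG13 and BCAT2. The summed seed markers were also highest in gbpl3 replicate 3 and lowest in Col-0 replicate 1, and their part in this order was not tested. Over all 6 libraries, the Pearson correlation of log2 CPM with SEN1 was 0.990 for ASN1, 0.962 for DIN10, 0.933 for bZIP1 and -0.921 for bZIP11. It was 0.881 for DIN2, 0.769 for NAC6, 0.044 for BCAT2 and -0.104 for DIN11. Among all tested genes, the rank by this correlation was 34 for ASN1, 330 for DIN10, 716 for bZIP1, 1411 for DIN2 and 2736 for NAC6. Many other genes were thus closer to SEN1 than most of the 10. These values are a description of 6 libraries, which share the split by genotype.

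**Figure D2:**
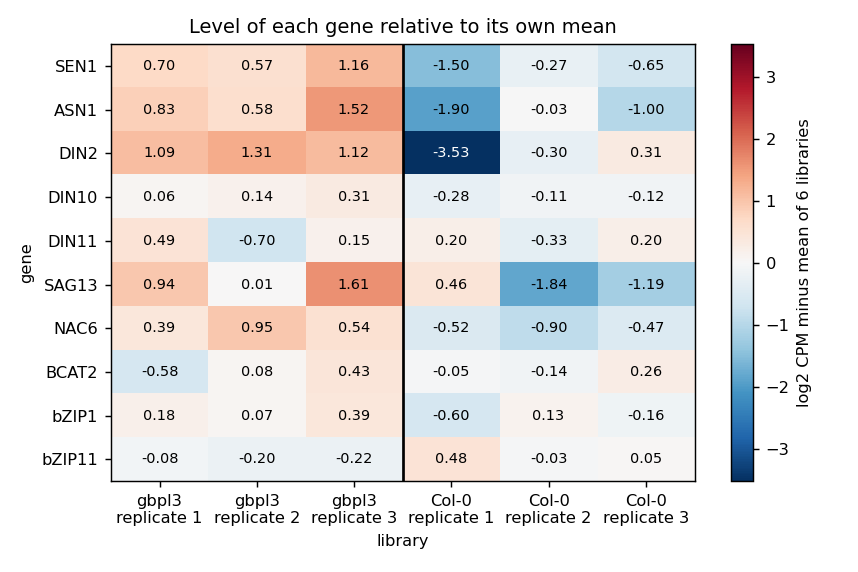
Log2 CPM of each gene (rows) in each library (columns, gbpl3 left of the line and Col-0 right of it), minus that gene's mean over the 6 libraries. Red is above the mean and blue below; SEN1 and ASN1 show the same order of libraries within each genotype, and bZIP11 the opposite order in Col-0.

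The 5 genes most like SEN1 by that correlation, of all tested genes, were SGR5, AT5G12950, AT2G47640, TPP and OLEO2, at 0.997 to 0.998 over 6 libraries. TPP here is AT2G30440, annotated as a thylakoid processing peptide. Log2 fold changes of SGR5, AT5G12950, AT2G47640 and TPP were 0.67, 0.52, 0.26 and 0.37. SGR5 and AT2G47640 were not called (adjusted p = 0.0668 and 0.127 with edgeR). Of the 5 genes, OLEO2, an oil body protein of seeds, is one of the seed markers. OLEO2 had 3.98, 4.80 and 10.9 CPM in gbpl3 replicates 1 to 3, against 0, 1.07 and 0.511 CPM in Col-0 replicates 1 to 3.

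Per kilobase of exon, the scale on which levels of genes can be compared, the order in gbpl3 was DIN10, SEN1, bZIP1, ASN1, bZIP11, NAC6, BCAT2, DIN2, DIN11 and SAG13. In Col-0 it was DIN10, bZIP1, bZIP11, SEN1, ASN1, NAC6, BCAT2, DIN11, DIN2 and SAG13. DIN10 averaged 226.6 ± 19.8 CPM per kb in gbpl3 and 178.5 ± 11.4 CPM per kb in Col-0 (SD, n = 3 each). SEN1 averaged 42.9 ± 9.57 CPM per kb in gbpl3, next below DIN10, and 14.6 ± 5.81 CPM per kb in Col-0, below both bZIP genes. In that order SEN1 stood 2 places higher in gbpl3 than in Col-0, and bZIP11 2 places lower. ASN1 averaged 18.7 ± 6.58 CPM per kb in gbpl3 and 5.27 ± 3.33 CPM per kb in Col-0. SAG13, the lowest, averaged 0.798 ± 0.477 CPM per kb in gbpl3 and 0.195 ± 0.276 CPM per kb in Col-0. In gbpl3, the libraries of bZIP1 and ASN1, of BCAT2 and DIN2, and of DIN11 and SAG13 overlapped, whereas in Col-0 every neighbouring pair in the order overlapped except DIN10 with bZIP1 and BCAT2 with DIN11. The 10 genes together took 0.0788%, 0.084% and 0.0934% of all counts in gbpl3 replicates 1 to 3, against 0.0606%, 0.0684% and 0.0679% in Col-0 replicates 1 to 3. DIN10 alone made up 78.8% to 82.6% of these counts in gbpl3 and 85.1% to 88.3% in Col-0.

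**Figure D3:**
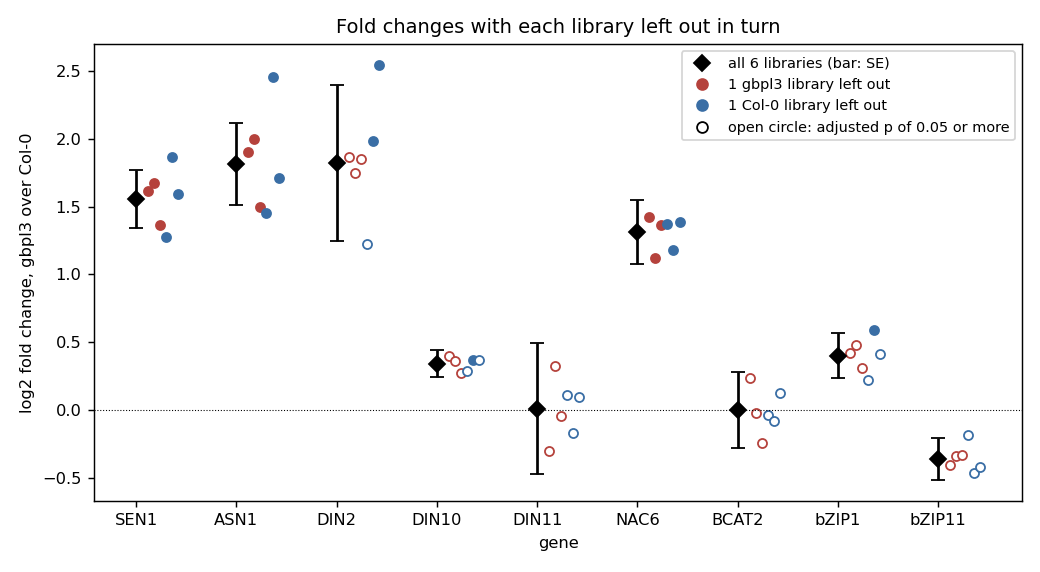
Log2 fold change (gbpl3 over Col-0) of the 9 tested genes from all 6 libraries (diamonds, bars for the SE) and with 1 library left out (red where it was a gbpl3 library, blue where it was a Col-0 library; filled where the adjusted p was under 0.05). SEN1, ASN1 and NAC6 were called in all 6 fits, DIN2 in 2, and DIN10 and bZIP1 in 1 each.

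The relatives of the 10 genes were followed to see whether a change was shared by a family. Of 23 relatives, 18 could be tested, 6 were higher (33.3%) and 2 lower (11.1%) in gbpl3, with a median log2 fold change of 0.32. Over all tested genes the shares were 6.06% higher and 4.69% lower. The relatives were chosen with earlier results known, and no family was tested as such. SAG13 lies in a row of short-chain dehydrogenase genes on chromosome 2, and of its neighbours AT2G29300 averaged 18.8 ± 0.502 CPM in gbpl3 and 9.93 ± 1.47 CPM in Col-0 (SD, n = 3 each; log2 fold change 0.92, adjusted p = 0.00129 with edgeR). AT2G29290 (0.58, adjusted p = 0.00639) was higher as well, and so was AT2G29310 (0.42, adjusted p = 0.0333), whose call ended without gbpl3 replicate 1 or 3 (adjusted p = 0.0826 and 0.216) or Col-0 replicate 1 or 3 (adjusted p = 0.0527 and 0.108). The neighbours AT2G29320, AT2G29330, AT2G29340 and AT2G29360 did not pass the test, with estimates of 0.36, -0.09, 0.21 and -0.14 on the log2 scale. Genes in such a row can share reads, so their counts are less certain.

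Among enzymes related to BCAT2, BCAT3, which acts in synthesis in the chloroplast, was lower in gbpl3 at 114 ± 8.46 CPM, against 149 ± 7.57 CPM in Col-0 (SD, n = 3 each; log2 fold change -0.39, adjusted p = 0.0163 with edgeR). That call ended without gbpl3 replicate 3 (adjusted p = 0.119). BCAT4, which acts in the making of glucosinolates from methionine, was higher (0.51, adjusted p = 0.0441), and the call ended without gbpl3 replicate 1, 2 or 3 (adjusted p = 0.199, 0.0575 and 0.117) or Col-0 replicate 3 (adjusted p = 0.21). BCAT1, the neighbour of BCAT2, and BCAT5 and BCAT6 were not called (log2 fold changes -0.13, 0.11 and -0.43).

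Of the raffinose synthase family of DIN10, RS5 (AT5G40390), a raffinose synthase, was lower (log2 fold change -0.44, adjusted p = 0.0196). The RS5 call ended without gbpl3 replicate 3 (adjusted p = 0.137) or Col-0 replicate 1 (adjusted p = 0.0543). Of the rhodanese relatives of SEN1, STR18 was higher (0.87, adjusted p = 0.0224), a call that ended without gbpl3 replicate 1 (adjusted p = 0.157) or Col-0 replicate 3 (adjusted p = 0.1), and STR16 was not called (0.29, adjusted p = 0.0881). BGLU28, the relative of DIN2 with enough reads to test, was not called (1.41, adjusted p = 0.153), nor was AT3G49630, the neighbour of DIN11 (0.39, adjusted p = 0.65).

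The wider pathway was described with 11 lists holding 142 genes, of which 138 were tested. Of these, 27 were higher in gbpl3 (19.6%), 1 was lower (0.725%) and 110 were not called, against 6.06% higher and 4.69% lower over all genes. NAP, JUB1 and SAG29, among the 27, passed the filter on low counts through their gbpl3 libraries, which fixed their direction. Without gbpl3 replicate 1, gbpl3 replicate 3 or Col-0 replicate 3, 16, 13 and 17 were called higher. At an unadjusted p under 0.05 there were 49 higher and 6 lower, and DESeq2 called 21 higher and 1 lower. The median log2 fold change of the 138 genes was 0.20. The lists were drawn up with earlier results known, and the share says nothing of any 1 list. Counts of single lists below are to be read beside the same 6.06% higher and 4.69% lower over all genes. Seed storage markers moved with genotype as given above, and their part in these counts was not tested.

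Of the SnRK1 kinase and trehalose phosphate list, 3 of 15 tested genes were higher, 0 were lower and the median log2 fold change was 0.15. All 3 are trehalose phosphate synthase relatives of class II: TPS8 averaged 153 ± 13.7 CPM in gbpl3 and 78.5 ± 19.2 CPM in Col-0 (SD, n = 3 each; log2 fold change 0.96, adjusted p = 0.000201 with edgeR). TPS11 averaged 85.4 ± 14.6 CPM in gbpl3 and 45.2 ± 12.9 CPM in Col-0 (0.91, adjusted p = 0.00141). TPS6 (0.52, adjusted p = 0.0239) lost its call without gbpl3 replicate 3, Col-0 replicate 1 or Col-0 replicate 3 (adjusted p = 0.182, 0.0804 and 0.0668). The SnRK1 catalytic subunits KIN10 and KIN11 were not called (0.16 and 0.03), nor was TPS1, the enzyme that makes trehalose phosphate (-0.31, adjusted p = 0.0912). KIN10, KIN11 and TPS1 are named as the core of the list, chosen after their values were seen.

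The bZIP factors of groups C and S1 are known dimer partners of bZIP1 and bZIP11. Of these, 1 of 7 was higher (14.3%, against 6.06% over all genes). That was bZIP9 at 23.2 ± 1.64 CPM in gbpl3 and 16.6 ± 2.20 CPM in Col-0 (SD, n = 3 each; log2 fold change 0.49, adjusted p = 0.0345 with edgeR). Its call ended with DESeq2 (adjusted p = 0.0563), without gbpl3 replicate 1, 2 or 3 (adjusted p = 0.0634, 0.0806 and 0.145) and without Col-0 replicate 1 or 3 (adjusted p = 0.146 and 0.0582). It shares exon bases with AT5G24810 on the opposite strand, which had 3032 counts to 1349 for bZIP9.

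Of 20 genes of amino acid breakdown, 4 were higher, 0 were lower and the median log2 fold change was 0.22. They were GDH2, a glutamate dehydrogenase (0.35, adjusted p = 0.0212), PPDK, pyruvate orthophosphate dikinase (0.62, adjusted p = 0.0213), MCCA, a subunit of the leucine breakdown enzyme methylcrotonyl-CoA carboxylase (0.42, adjusted p = 0.0442), and HML1, which acts later in the same route (0.40, adjusted p = 0.0482). The effects were smaller than that of ASN1, and each call ended when single libraries were left out. The GDH2 call ended without gbpl3 replicate 1 or 3 or Col-0 replicate 3 (adjusted p = 0.103, 0.0717 and 0.107), and that of PPDK without gbpl3 replicate 3 or Col-0 replicate 3 (adjusted p = 0.176 and 0.0654). The MCCA call held only without Col-0 replicate 2 (adjusted p = 0.0111) and otherwise gave adjusted p of 0.0587 to 0.222, and that of HML1 held in none of the 6 fits (adjusted p = 0.0686 to 0.134). With DESeq2, MCCA and HML1 were not called (adjusted p = 0.0555 and 0.08).

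Of 6 genes known to be repressed by sugar, 2 were higher, with a median of 0.61. BXL1, a β-xylosidase, averaged 320 ± 52.8 CPM in gbpl3 and 198 ± 30.8 CPM in Col-0 (SD, n = 3 each; log2 fold change 0.69, adjusted p = 0.00192 with edgeR). STP1, a hexose transporter (0.74, adjusted p = 0.0207), had groups that overlapped, and its call ended with DESeq2 (adjusted p = 0.232) and without gbpl3 replicate 1 or 3 or Col-0 replicate 3 (adjusted p = 0.0775, 0.146 and 0.101). Of genes known to be induced by sugar, 1 of 3 tested was also higher: GPT2, a glucose phosphate transporter of plastids, averaged 7.92 ± 2.38 CPM in gbpl3 and 2.39 ± 0.843 CPM in Col-0 (1.73, adjusted p = 0.00177). Genes of both kinds were thus among those called higher. Of 16 genes of starch breakdown, 1 was called higher (6.25%), close to the 6.06% over all genes. It was SEX4, a phosphoglucan phosphatase, at 73.5 ± 6.74 CPM in gbpl3 and 48.8 ± 4.51 CPM in Col-0 (0.59, adjusted p = 0.00197). The median of the 16 was 0.19, and their estimates were all positive, where 10233 of all 20677 tested genes had a positive one. That was not particular to this list. The estimates of the 9 tested chlorophyll breakdown genes and of the 6 shoot markers were all positive too, with medians of 0.19 and 0.25.

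**Figure D4:**
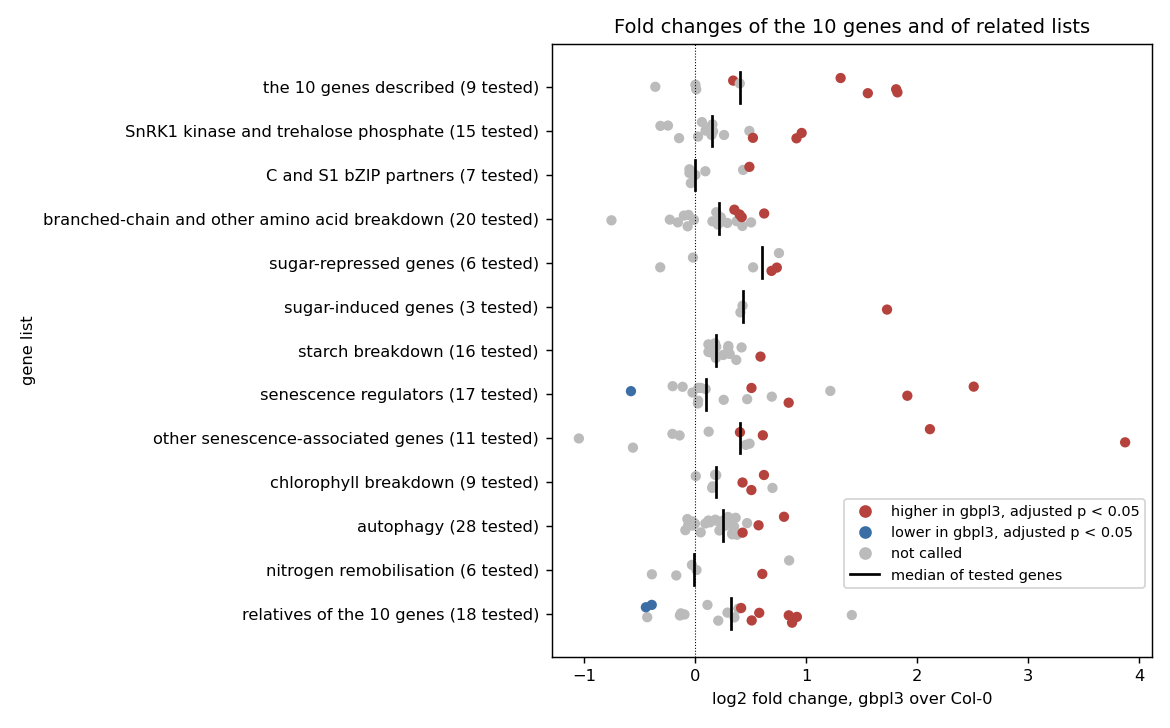
Log2 fold change (gbpl3 over Col-0) of each tested gene of the 10 described, of the 11 pathway lists and of the relatives, 1 point per gene, with a black line at each list's median. Called genes are red (higher in gbpl3) or blue (lower). The largest is SAG29 at 3.87, whose direction the filter on low counts fixed, and most points lie right of 0.

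Among 17 regulators of senescence beside NAC6, 4 were higher and 1 was lower, with a median of 0.10. PIF4 and PIF5, phytochrome-interacting factors that promote senescence in darkness, were both higher. PIF4 averaged 150 ± 9.42 CPM in gbpl3 and 83.6 ± 20.4 CPM in Col-0 (SD, n = 3 each; log2 fold change 0.84, adjusted p = 0.000598 with edgeR), and PIF5 averaged 108 ± 4.04 CPM in gbpl3 and 75.9 ± 3.22 CPM in Col-0 (0.51, adjusted p = 0.00232). NAP, a NAC factor that promotes senescence, had 16, 23 and 16 counts in gbpl3 replicates 1 to 3, against 0, 4 and 5 counts in Col-0 replicates 1 to 3 (2.51, adjusted p = 0.026). NAP passed the filter on low counts through its gbpl3 libraries, which fixed its direction. JUB1, a NAC factor that delays senescence, was higher as well (1.91, adjusted p = 0.016), at 3.12 ± 0.782 CPM in gbpl3 and 0.833 ± 0.490 CPM in Col-0. Like NAP, JUB1 passed the filter on low counts through its gbpl3 libraries, which fixed its direction. WRKY53, which promotes senescence, was lower, at 17.5 ± 1.44 CPM in gbpl3 and 26.1 ± 4.24 CPM in Col-0 (-0.58, adjusted p = 0.0154). Promoters and a delayer of senescence were both among the genes called higher, but the filter fixed the direction of the delayer, JUB1, and of NAP. A promoter was the gene called lower. The call of NAP ended without gbpl3 replicate 1, 2 or 3 (adjusted p = 0.0808, 0.0861 and 0.0955) or Col-0 replicate 1, where the estimate was 1.92 (adjusted p = 0.107); without Col-0 replicate 3 it was 3.17 (adjusted p = 0.0451). The calls of JUB1 and WRKY53 ended without gbpl3 replicate 1 (adjusted p = 0.0938 and 0.0767), gbpl3 replicate 3 (adjusted p = 0.0734 and 0.0799) or Col-0 replicate 1 (adjusted p = 0.0706 and 0.09). WRKY53 shares exon bases with a gene on the opposite strand that had 6402 counts to its 1476.

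Of other senescence-associated genes, 4 of 11 tested were higher and 0 lower, with a median of 0.41. SAG29, a sugar transporter of the SWEET family, had 62, 27 and 33 counts in gbpl3 replicates 1 to 3, against 7, 0 and 1 counts in Col-0 replicates 1 to 3 (log2 fold change 3.87, adjusted p = 0.0016). SAG29 passed the filter on low counts through its gbpl3 libraries, which fixed its direction. Its estimate was 6.01 without Col-0 replicate 1 (adjusted p = 0.000118) and 3.25 without Col-0 replicate 2 (adjusted p = 0.00253), and the call held in all 6 fits. SRG1, an oxygenase like DIN11, averaged 9.69 ± 3.86 CPM in gbpl3 and 2.27 ± 1.25 CPM in Col-0 (SD, n = 3 each; 2.11, adjusted p = 0.000864 with edgeR). SAG15, a chloroplast Clp ATPase (0.61, adjusted p = 0.0055), and SAG2, a cysteine protease (0.41, adjusted p = 0.0165), were more abundant and changed less. The SAG2 call ended without gbpl3 replicate 1 or 3 or Col-0 replicate 3 (adjusted p = 0.0794, 0.0963 and 0.0528).

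Of 9 tested genes of chlorophyll breakdown, 3 were higher and 0 lower, with a median of 0.19. ACD2, the red chlorophyll catabolite reductase, averaged 47.9 ± 5.49 CPM in gbpl3 and 31.1 ± 3.26 CPM in Col-0 (SD, n = 3 each; log2 fold change 0.62, adjusted p = 0.00316 with edgeR). PPH, the pheophytinase, was also higher (0.51, adjusted p = 0.0105), as was CLH1, a chlorophyllase (0.43, adjusted p = 0.0319). NYE1, the protein that starts chlorophyll breakdown in senescence, was not called at 8.83 ± 0.480 CPM in gbpl3 and 5.49 ± 1.89 CPM in Col-0 (0.70, adjusted p = 0.0782). The PPH call ended without gbpl3 replicate 3 (adjusted p = 0.0697). The CLH1 call ended with DESeq2 (adjusted p = 0.0502), without gbpl3 replicate 1 or 3 (adjusted p = 0.139 and 0.106) and without Col-0 replicate 2 or 3 (adjusted p = 0.0578 and 0.122). The shoot marker LHCB2.1, a chlorophyll-binding protein, was higher too (0.63, adjusted p = 0.00527), the only 1 of 6 shoot markers called with edgeR. DESeq2 called 2 of the 6 higher. At an unadjusted p under 0.05, 4 of the 6 were higher and 0 lower, where 2557 of all 20677 tested genes were higher. All 6 estimates were positive, with a median of 0.25. The part of this shift in the lists above was not tested.

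Of 28 autophagy genes, 3 were higher (10.7%, against 6.06% over all genes) and 0 lower, with a median of 0.26. DESeq2 called 1 of the 28 higher. ATG4A, a protease that processes ATG8, averaged 73.6 ± 12.1 CPM in gbpl3 and 42.1 ± 6.92 CPM in Col-0 (SD, n = 3 each; log2 fold change 0.80, adjusted p = 0.000884 with edgeR). It shares 1445 exon bases with AT2G44130, which had 2583 counts to 3909 for ATG4A, so its level is uncertain. ATG13A, of the kinase complex that starts autophagy (0.43, adjusted p = 0.0362), was called in 1 of 6 fits with a library left out, that without gbpl3 replicate 2, and had adjusted p of up to 0.178 in the others. ATG8D, which coats the autophagosome (0.57, adjusted p = 0.0412), was called in none of them (adjusted p = 0.0572 to 0.146), and DESeq2 called neither (adjusted p = 0.061 and 0.0724). Of 6 tested genes of nitrogen remobilisation, 1 was higher: GLN1;2, a cytosolic glutamine synthetase, averaged 791 ± 118 CPM in gbpl3 and 520 ± 48.3 CPM in Col-0 (0.61, adjusted p = 0.00251). That is 16.7% of the 6 genes, against 6.06% over all genes, and the median of those 6 genes was -0.01.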

How the data were processed

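Messenger RNA of whole seedlings was sequenced from 3 gbpl3 and 3 Col-0 libraries. The authors deposited raw counts per gene and FPKM values, and the submitters' processing notes name HTSeq 0.6.1p1, HISAT2 2.0.4 and TAIR10. Whether counting used the strand, and how it handled reads with several matches, is not given in the sources used here. The deposited FPKM values use a gene length that adds the exons of all transcripts for some genes, 3.6 times the exon union for SEN1, so levels per kilobase were computed from counts and the exon union of the TAIR10.1 annotation. Every sample column was matched by name (0 left over). The locus of GBPL3, AT5G46070, was assigned from background knowledge.

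Genes were kept with edgeR's filterByExpr (20677 genes), scaled by TMM, and compared by the quasi-likelihood test of edgeR 4.0.16 in R 4.3.3, with Benjamini-Hochberg adjustment and a threshold of 0.05. Standard errors were recovered from the estimate and its F statistic, and 95% intervals use the normal distribution. Log2 CPM for correlations used a prior count of 2. The script was tested on simulated data. The members and lists were chosen with earlier results of these data known. All 10 genes were named, with every called gene of a list up to 6 and relatives with a mean of at least 1 CPM, except 1 relative that is not reported here and the seed markers, whose filter fixed their direction; other genes singled out in the text (ASN2, ASN3, SAG12, NYE1, KIN10, KIN11, TPS1, some markers) were chosen after their values were seen. Library pairs within a genotype differed by more than sampling noise. The 3-count floors cover counting error only, while the 95% intervals also hold the spread between libraries. Other settings tried were DESeq2 1.42.0, scaling by RLE or the upper quartile, a filter of 1 CPM in 3 libraries or none, a replicate block, leaving out each library, and limma 3.58.1 on log2(FPKM + 1) or log2(FPKM + 0.1).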

Additional observations from a re-analysis of the deposited data

How the results depend on the processing

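SEN1, ASN1 and NAC6 kept their direction and their call under every alternative on counts, and NAC6 also under the 3 alternatives on FPKM; with FPKM, the SEN1 call ended with no filter (adjusted p = 0.0521) and the ASN1 call with a pseudocount of 0.1 (adjusted p = 0.0522) or no filter (adjusted p = 0.0778). The members called higher were 5; they were 3 with the replicate block, 3 to 6 with a library left out, and 3, 2 and 1 with limma on log2(FPKM + 1), log2(FPKM + 0.1) and unfiltered log2(FPKM + 1). Members called lower were 0 under all of these.

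In that order of the FPKM alternatives, all genes called higher were 424, 384 and 294, and lower 390, 368 and 227, against 1253 and 969; list genes called higher were 11, 11 and 4, against 27, and lower 0, 0 and 0, against 1. With a library left out, all genes called higher ran from 629 to 1443 and lower from 320 to 1238, and list genes called higher from 13 to 34 and lower from 0 to 2. For all genes, the lowest counts were without gbpl3 replicate 3 and the highest without Col-0 replicate 2. With no filter, list genes called lower were 2.

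Same-numbered libraries did not deviate together (correlations of -0.0461, -0.0647 and 0.0355). With 3 libraries per genotype, this cannot tell whether same-numbered samples were grown or prepared together, and the labels do not say. With the replicate block, all genes called higher were 916 and lower 618, and the calls of DIN2 (adjusted p = 0.0668) and DIN10 (adjusted p = 0.0695) ended. Estimates near 0 changed sign: DIN11 was -0.029 with the block, -0.30 to 0.32 with a library left out, and -0.043, -0.11 and -0.043 with the FPKM alternatives, and BCAT2 was -0.035, -0.24 to 0.24, and -0.075, -0.12 and -0.075. The causes were not tested. At this depth, genes of a few counts such as SAG13 and DIN11 give wide intervals, and 3 libraries per genotype limit every call.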
